A study of Mus musculus with 8 samples.

Results

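Collagen is strengthened after translation by a small set of enzymes and a chaperone, and 10 of their genes were followed here in calvarial osteoblast cultures. They were taken by symbol from the 24421 genes listed in every library: the lysyl oxidase genes Lox, Loxl1, Loxl2, Loxl3 and Loxl4, the lysyl hydroxylase genes Plod1, Plod2 and Plod3, the prolyl 4-hydroxylase subunit gene P4ha1, and Serpinh1, which encodes the collagen chaperone HSP47. The study asked how Def6, a guanine nucleotide exchange factor of immune and bone cells, acts on osteoblast differentiation. Bone-forming cells were released enzymatically from newborn calvariae (skull bone) of wild-type (WT) and Def6-/- littermates, both of the C57BL/6 strain, and poly-A+ RNA was sequenced before induction (day 0) and on day 12 of culture with ascorbic acid and β-glycerophosphate, the osteogenic medium. The medium used before osteogenic induction held no ascorbic acid. There were 2 libraries in each of the 4 groups (WT day 0, WT day 12, Def6-/- day 0 and Def6-/- day 12), described by the study as biological replicates. How many mice gave each culture was not found in the sources used here.

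Inside the endoplasmic reticulum, prolyl 4-hydroxylase modifies prolines so that the collagen triple helix is stable at body temperature, and lysyl hydroxylases modify lysines, which sets the type of cross-link that can later form. Both kinds of hydroxylase need ascorbic acid as a cofactor. HSP47 binds the folded helix and escorts it out of the endoplasmic reticulum, and outside the cell lysyl oxidases convert lysines and hydroxylysines to aldehydes that join collagen and elastin molecules. Defects in several of these genes, such as PLOD2 and SERPINH1, cause brittle bone disease.

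Plod1 and Plod3 moved in opposite directions between day 0 and day 12 (values below), and the 250 bases upstream of their RefSeq transcription starts in GRCm38.p6 are printed to place these 2 genes side by side. The Plod1 stretch lies at chr4:147936777-147937026 on the minus strand and the Plod3 stretch at chr5:136986769-136987018 on the plus strand, each read 5′ to 3′ towards the start. Capitals mark matches to 4 short motifs, and a match on the minus strand reads as the reverse complement. The motifs searched on both strands were the GC box, spelled GGGCGG, the TATA box with the letters TATAAA, the CCAAT box named for its own letters, and the core of the hypoxia response element, ACGTG. No match overlapped another.
Plod1: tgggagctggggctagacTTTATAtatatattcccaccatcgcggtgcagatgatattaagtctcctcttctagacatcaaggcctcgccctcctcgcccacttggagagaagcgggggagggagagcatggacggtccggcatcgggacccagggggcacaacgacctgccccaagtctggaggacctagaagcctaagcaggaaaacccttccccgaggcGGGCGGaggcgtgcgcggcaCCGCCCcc
Plod3: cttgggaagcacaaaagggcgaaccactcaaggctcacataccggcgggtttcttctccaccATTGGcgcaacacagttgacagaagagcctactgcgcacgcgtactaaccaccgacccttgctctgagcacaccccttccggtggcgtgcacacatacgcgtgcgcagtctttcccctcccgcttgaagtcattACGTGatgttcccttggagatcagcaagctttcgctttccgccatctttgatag
Plod1 held 2 GC box matches and 1 TATA box match, the latter 227 to 232 bases upstream on the minus strand. Plod3 held 1 CCAAT box match and 1 hypoxia response element core, and neither a GC box nor a TATA box was among its letters. Of 27025 mouse promoter windows of the same length, 32.9% held a GC box, 13.0% a TATA box, 34.5% a CCAAT box and 16.6% the hypoxia response element core. Windows were given for 5 members in all. Serpinh1 and P4ha1 each held 1 GC box match and 1 hypoxia response element core, and Loxl4 held 3 GC box matches. The heat shock element core GAANNTTC, held by 6.78% of all windows, had no match in the 5. The other members were Lox, Loxl1, Loxl2, Loxl3 and Plod2. Matches describe the letters only.

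Reads assigned to genes numbered 2414856 to 3482837 a library, and the 10 members held 16348 to 26656 of them, or 0.647% to 0.985%. The target gene Def6 had 112 to 186 reads in WT libraries and 0 to 2 in Def6-/- libraries. Of 10 listed osteoblast genes, 6 rose, 0 fell and 4 did not pass in each genotype (limma adjusted p under 0.05). Over all genes tested, 12.7% were higher in WT and 12% in Def6-/- cultures. Alpl (alkaline phosphatase) lay at 13.2 to 20.8 normalized CPM on day 0 and at 238 to 389 on day 12. Bglap (osteocalcin) was at 0 in all 4 day 0 libraries and 6.31 to 18.9 on day 12. Runx2, Sp7, Col1a1 and Spp1 did not pass, and Spp1 averaged 4635 normalized CPM at WT day 0 and 2479 at WT day 12. Its Def6-/- means were 3186 and 2951. Macrophage markers also rose, 12 of 12 listed genes in WT and 11 of 12 in Def6-/- cultures. Their summed level was 172 to 390 normalized CPM on day 0 and 3058 to 6114 on day 12. This list leaves out the study's own macrophage and osteoclast panel, which the study reported as very low and alike between genotypes. It also saw a similar effect of Def6 loss on differentiation after removing hematopoietic cells. Def6-/- macrophages in co-culture did not change osteoblast differentiation in its hands. Other markers than the 12 read differently here. Acp5, Adgre1, Cd14, Csf1r, Ctsk, Fcgr3, Itgam, Itgb3 and Ptprc, the 9 genes of the whole table with deposited values that were not whole reads, summed to 17.1 to 20.7 CPM as deposited on day 0 and 15.2 to 22.1 on day 12. On that scale the 12 listed genes summed to 59.0 to 110.2 and 859 to 2155, and how the 9 genes' values came to differ was not tested. Adipocyte markers summed to 36.9 to 47.0 on day 0, 311 to 334 at WT day 12 and 427 to 439 at Def6-/- day 12. Chondrocyte markers summed to 1972 to 3821 on day 0 and 822 to 1219 on day 12, and Col2a1 made up most of these sums. It averaged 2673 and 901 in WT on the 2 days and 2687 and 698 in Def6-/- cultures. Col2a1 fell in both genotypes and Acan in Def6-/- cultures, while Col9a1 rose in Def6-/- cultures and Sox9 passed in neither. Endothelial markers summed to 5.65 to 13.0 and skeletal muscle markers to 2.47 to 13.5, with Tie1 and Myod1 at 0 in all 8 libraries. WT day 0 replicate 1 stood apart: over the 12348 genes tested it correlated with replicate 2 at r = 0.927, against 0.975 to 0.978 within the other groups, and 34.9% of its reads were not uniquely aligned against 21.4% to 26.6% elsewhere.

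Between day 0 and day 12 the members split. In WT cultures Lox, Loxl2 and Plod3 fell, Plod1 rose, and the other 6 did not pass the test (limma on log2 of normalized CPM + 1, Benjamini-Hochberg adjusted p under 0.05 over 12348 genes). The same 4 genes passed in the same directions in Def6-/- cultures, which share no library with the WT comparison but share its estimate of the spread. Thus 3 of 10 members were lower and 1 of 10 higher in each genotype, beside 5.63% of all genes tested lower and 12.7% higher in WT, and 4.79% lower and 12% higher in Def6-/- cultures. Libraries of the 2 days did not overlap for 6 members lower and 1 higher in WT, beside 26.6% and 29.3% of all genes, and for 5 lower and 2 higher in Def6-/- cells, beside 32.4% and 35.2%. The members' median log2 change was -0.34 in WT and -0.16 in Def6-/- cells, and the median over all genes was -0.00 and 0.01. Leaving out WT day 0 replicate 1 kept all 4 calls in both genotypes, but most calls were lost when a day 12 library was left out, and with CPM as deposited Plod3 was the only member still called. RNA from whole cultures cannot tell fewer cells of a type from less RNA per cell. The part of the macrophage, adipocyte and chondrocyte marker shifts in these changes was not tested.

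**Figure D1:**
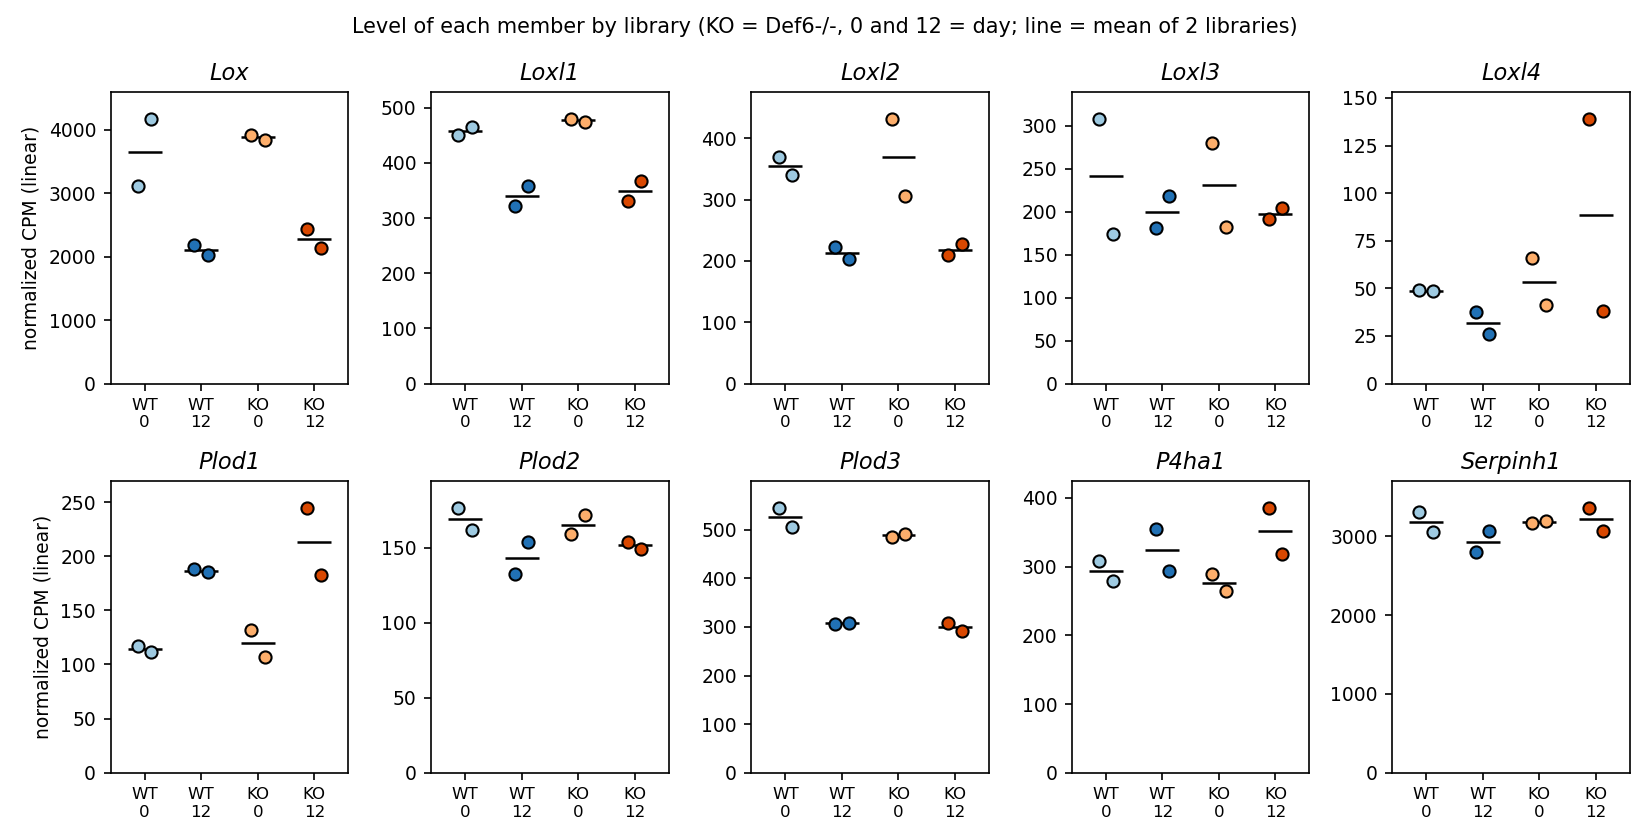
Level of each member in each of the 8 libraries, in normalized CPM on a linear axis that starts at 0, with 1 panel a gene, a point a library and a line at the mean of the 2 libraries of a group (KO, Def6-/-; 0 and 12, day). Lox, Loxl1, Loxl2 and Plod3 sit lower on day 12 in both genotypes, Plod1 sits higher, Serpinh1 stays between 2799 and 3363 and 1 Def6-/- day 12 library stands out for Loxl4.

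Lox, on chromosome 18, encodes the lysyl oxidase that cross-links fibrillar collagen and elastin. Its level was 3123 and 4180 normalized CPM in the WT day 0 libraries and 2184 and 2032 at WT day 12. In Def6-/- cultures it was 3925 and 3841 on day 0 and 2434 and 2141 on day 12. Every day 12 library lay below every day 0 library, and the widest gap within a group was between the WT day 0 replicates (3652 ± 748, SD, n = 2). Lox fell by 0.78 on the log2 scale in WT (SE 0.22, 1.71-fold lower, limma adjusted p = 0.0396) and by 0.77 in Def6-/- cells (SE 0.22, 1.70-fold lower, adjusted p = 0.0442). With no filter on low values neither change passed.

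Loxl2, at chr14:69609068-69695834, is a paralog with scavenger receptor domains that acts on collagen IV and other matrix proteins. It measured 369 and 340 normalized CPM at WT day 0, 223 and 203 at WT day 12, 432 and 305 at Def6-/- day 0 and 209 and 227 at Def6-/- day 12. Day 12 lay below day 0 without overlap in either genotype, and the Def6-/- day 0 replicates differed most. The fall was 0.73 on the log2 scale in WT (SE 0.20, adjusted p = 0.0345) and 0.74 in Def6-/- cells (SE 0.20, adjusted p = 0.036), both by limma. Exons of an antisense transcript, Gm27177, cover 5.57% of its exon bases, and reads there cannot be assigned without strand.

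Loxl1, at chr9:58287738-58313186, encodes the paralog best known for elastic fibres. Its 4 day 0 libraries ranged from 451 to 480 normalized CPM and its 4 day 12 libraries from 322 to 367, so that the days did not overlap. Its log2 changes of -0.43 in WT (95% interval -0.80 to -0.07) and -0.45 in Def6-/- cells (-0.82 to -0.09) missed the threshold after adjustment (limma adjusted p = 0.101 and 0.0914). Loxl3, at chr6:83034173-83052562, overlapped between days. It read 308 and 174 at WT day 0 and 280 and 182 at Def6-/- day 0, with replicate 1 the higher in both genotypes, and 181 to 218 on day 12. Its exons share 11.6% of their bases with Htra2 on the opposite strand. Htra2 was 66.1 to 135 normalized CPM on day 0 and 59.0 to 75.1 on day 12.

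Loxl4, at chr19:42593982-42612813, had the lowest group mean per kilobase of exon in all 4 groups, though Def6-/- day 12 replicate 1 (33.0) lay above both Plod2 libraries of that group (27.7 and 28.6). Its levels were 48.9 and 48.4 normalized CPM at WT day 0, 37.6 and 26.0 at WT day 12, 65.8 and 41.2 at Def6-/- day 0, and 139 and 38.0 at Def6-/- day 12. The value of 139 rested on 339 reads in Def6-/- day 12 replicate 1, against 89 in replicate 2. In the same library 16 targets of hypoxia-inducible factors summed to 2034 normalized CPM, against 1348 in Def6-/- day 12 replicate 2. Car9 (carbonic anhydrase) was at 83.8 against 13.2. That sum was not the highest: WT day 0 replicate 1 had 2144, with Loxl4 at 48.9. Of these sums, Ldha alone held 1438 normalized CPM in WT day 0 replicate 1 and 728 in Def6-/- day 12 replicate 1. The part of the difference between the Def6-/- day 12 replicates in the Loxl4 value was not tested. Its log2 change between days was -0.62 in WT (95% interval -1.79 to 0.55) and 0.48 in Def6-/- cells (-0.69 to 1.65), or -0.45 in Def6-/- cells without that library.

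The lysyl hydroxylases shifted in proportion, with Plod3 the most abundant per kilobase of exon in every library. Plod1, at chr4:147909753-147936767, encodes the hydroxylase of helical lysines. Its levels were 117 and 112 normalized CPM at WT day 0 and 188 and 186 at WT day 12, then 132 and 107 at Def6-/- day 0 and 245 and 182 at Def6-/- day 12. All 4 day 12 libraries exceeded all 4 day 0 libraries, and Def6-/- day 12 had the widest gap between replicates (214 ± 44.1, SD, n = 2). It rose by 0.70 on the log2 scale in WT (SE 0.20, 1.63-fold, limma adjusted p = 0.0398) and by 0.82 in Def6-/- cells (SE 0.20, 1.77-fold, adjusted p = 0.0219).

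Plod3, at chr5:136987019-136996648, encodes the family member that also transfers galactose and glucose to hydroxylysine. It stood at 545 and 506 normalized CPM at WT day 0, 306 and 308 at WT day 12, 485 and 491 at Def6-/- day 0, and 307 and 291 at Def6-/- day 12. The days were far apart and replicates close, with an SD of at most 27.6 normalized CPM. Plod3 fell by 0.77 on the log2 scale in WT (SE 0.16, 1.71-fold lower, limma adjusted p = 0.00956) and by 0.71 in Def6-/- cells (SE 0.16, 1.63-fold lower, adjusted p = 0.0147). Of its exon bases 11.7% lie over Znhit1 on the opposite strand, a gene at 83.1 to 99.1 normalized CPM on day 0 and 63.2 to 67.9 on day 12.

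Plod2, at chr9:92542223-92608428, encodes the hydroxylase of the collagen ends (telopeptides), where hydroxylysine cross-links begin. It ranged from 160 to 177 normalized CPM on day 0 and from 132 to 154 on day 12. Its log2 changes of -0.24 in WT (95% interval -0.62 to 0.13) and -0.12 in Def6-/- cells (-0.50 to 0.25) did not pass the test.

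Levels per kilobase were divided by all annotated exon bases of a gene, 6765 for Plod1 and 4519 for Plod3. This need not be the length of the transcripts expressed, so comparisons between genes are approximate. On this scale Plod3 made up 68.6% to 70.6% of the summed lysyl hydroxylase level in the day 0 libraries and 51.2% to 56.4% in the day 12 libraries. Plod1 went from 10.1% to 12.5% on day 0 to 22.1% to 27.3% on day 12, and Plod2 from 18.9% to 20.4% to 20.4% to 23.3%. The ratio of Plod1 to Plod3 per kilobase was 0.144 to 0.182 on day 0 and 0.403 to 0.532 on day 12, in both genotypes together. Shares within a library do not depend on its scaling. By the same measure Lox made up 69.7% to 77.6% of the lysyl oxidase level on day 0 and 68.1% to 70.9% on day 12, with overlapping ranges. Loxl1 followed at 12.5% to 14.6% and then 13.9% to 17.4%.

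**Figure D2:**
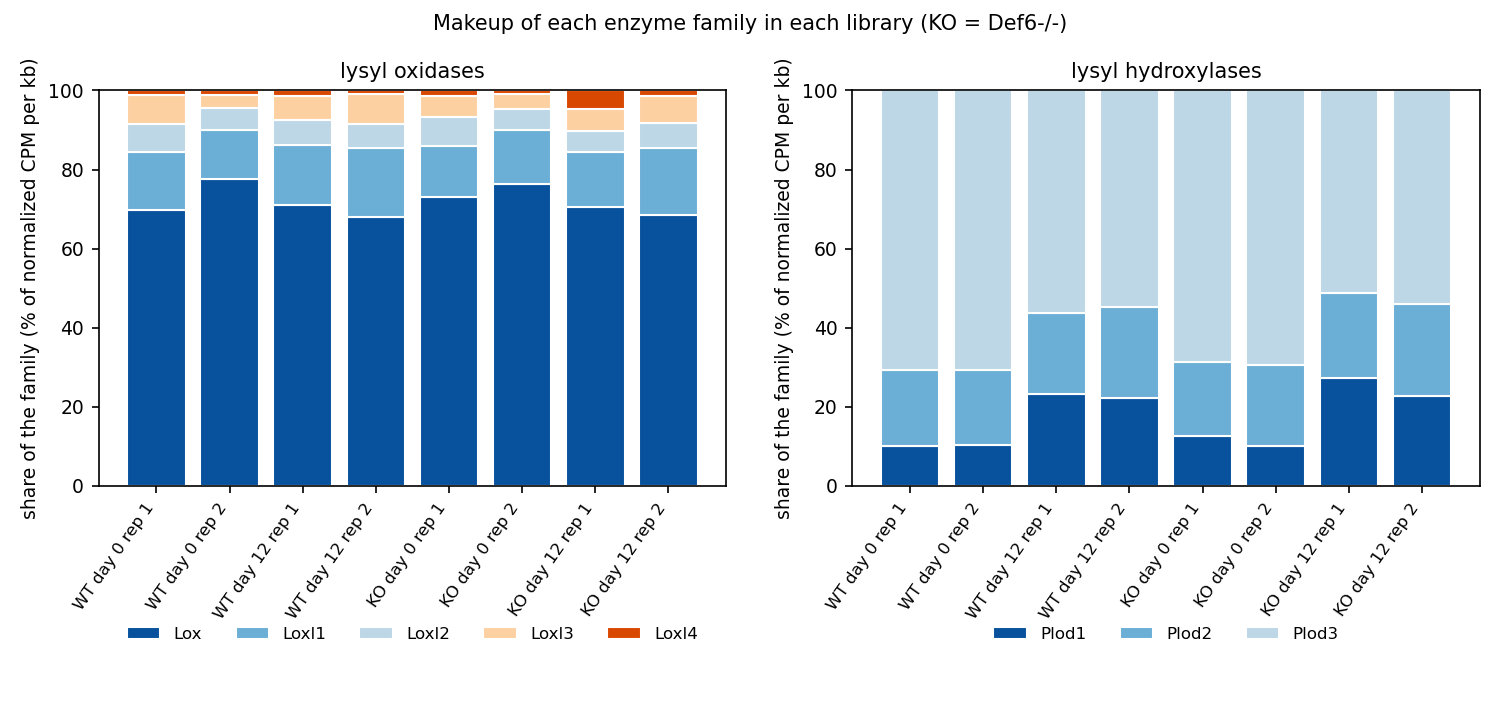
Stacked bars of the share of each gene in its family's summed normalized CPM per kilobase of exon, in percent, for the lysyl oxidases (left) and the lysyl hydroxylases (right), with 1 bar a library. The Plod1 share is 10.1% to 12.5% in the 4 day 0 bars and 22.1% to 27.3% in the 4 day 12 bars, while Lox is the larger part of the left panel in every library.

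P4ha1, at chr10:59323296-59373304, encodes a catalytic subunit of prolyl 4-hydroxylase. It was at 307 and 278 normalized CPM at WT day 0, 355 and 294 at WT day 12, 289 and 265 at Def6-/- day 0, and 386 and 318 at Def6-/- day 12. The WT days overlapped and the Def6-/- days did not, but the log2 changes of 0.14 (95% interval -0.27 to 0.56) and 0.34 (-0.08 to 0.75) did not pass the test in either genotype (limma adjusted p = 0.631 and 0.256). P4ha1 was higher on day 12 within each replicate number of both genotypes, and with the replicate number as a block neither change passed. Its partner subunit gene P4hb, the protein disulfide isomerase, was far more abundant at 1202 to 1899 normalized CPM and also missed the threshold, with log2 changes of -0.38 in WT and -0.14 in Def6-/- cells. Of the other catalytic subunit genes, P4ha3 rose in WT, from 160 to 276 normalized CPM on average. Its Def6-/- means of 172 and 263 did not pass, and P4ha2 passed in neither genotype.

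Serpinh1, at chr7:99345376-99353239, held 2799 to 3363 normalized CPM across the 8 libraries, and day 0 (3060 to 3311) lay inside the range of day 12. The log2 change was -0.12 in WT (95% interval -0.57 to 0.33) and 0.01 in Def6-/- cells (-0.44 to 0.46). Fkbp10, whose product works with HSP47 and the PLOD2 enzyme in the endoplasmic reticulum, changed by -0.16 and 0.06 on the log2 scale and passed in neither genotype. Colgalt1, the galactosyltransferase that acts on hydroxylysine, had log2 changes of 0.34 and 0.30, with day 12 above day 0 in every library and limma adjusted p = 0.188 and 0.267.

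**Figure D3:**
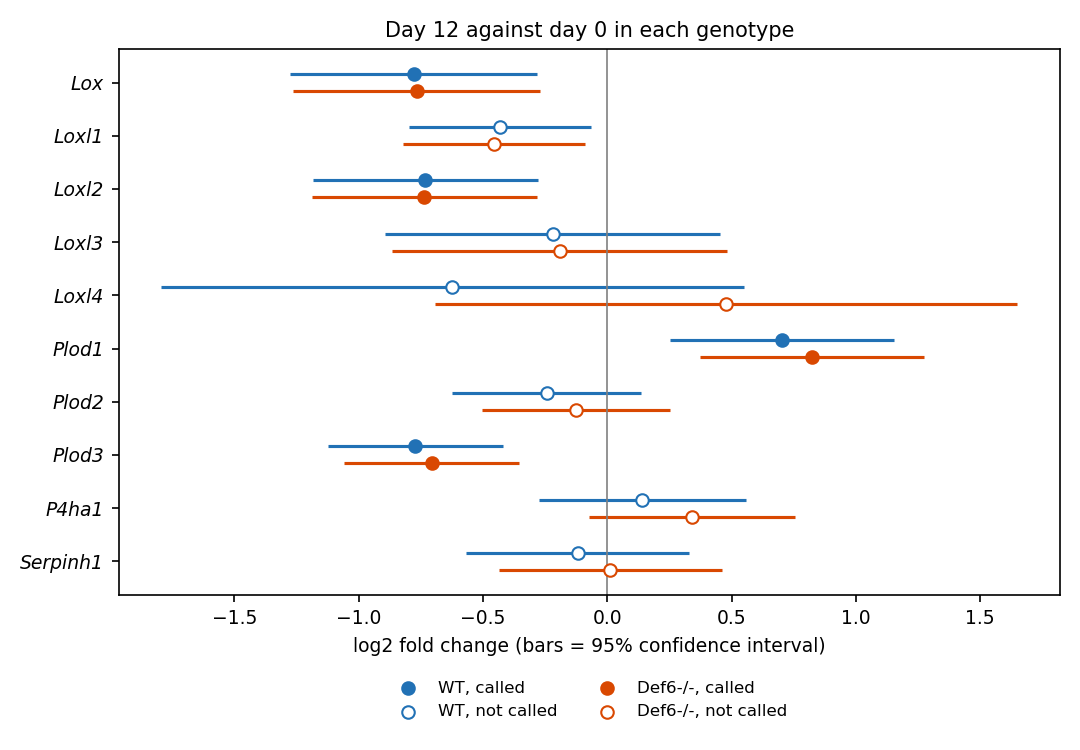
Log2 fold change of day 12 against day 0 for each member, WT in blue and Def6-/- in orange, with bars for the 95% confidence interval and filled points where the limma adjusted p was under 0.05. Lox, Loxl2 and Plod3 lie left of 0 and Plod1 right of 0 in both genotypes, and the Loxl4 intervals are the widest.

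Ranked per kilobase of exon, the order began Serpinh1, Lox, Loxl1 in all 4 groups. Serpinh1 averaged 1304 normalized CPM per kilobase at WT day 0 and 1201 at WT day 12, and Lox 764 and 441. Next came Plod3 on day 0 at 116 in WT and 108 in Def6-/- cells, and P4ha1 on day 12 at 78.8 and 85.5. Loxl4 had the lowest means, 7.54 to 21.0. Neighbours whose replicates overlapped, and so could not be ordered, were P4ha1 with Loxl2 on day 0, Loxl2 with Loxl3 on day 12 and at WT day 0, Plod1 with Plod2 on day 12, and Plod2 with Loxl4 at Def6-/- day 12. Members correlated across the 8 libraries mainly by day: log2 levels of Lox and Plod3 gave Pearson r = 0.913 and those of Plod1 and Plod3 r = -0.921, which is a description over groups that differ in mean.

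Between genotypes 1 member passed the study's criterion, on day 12, and 0 on day 0. On day 0, that count of 0 of 10 (limma p under 0.05 unadjusted and a change over 1.2-fold) stood beside 0.988% of all genes higher and 1.31% lower, and edgeR and DESeq2 on recovered reads also gave 0. The log2 differences, Def6-/- minus WT, ran from -0.10 to 0.10. Plod3 differed by -0.10 (95% interval -0.46 to 0.25) and Lox by 0.10 (-0.39 to 0.60). Replicates did not overlap for Loxl1 (higher) and Plod3 (lower), against 10.9% and 11.7% of all genes.

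At day 12, Loxl4 alone passed, 2.29-fold higher in Def6-/- cells (log2 SE 0.52, 95% interval 0.03 to 2.37, limma adjusted p = 1), beside 0.81% of all genes higher and 0.591% lower. After adjustment 0 of 10 members passed on either day, and 1 gene of all tested did on each (0.0081%, lower). The log2 difference for Loxl4 was 0.27 without Def6-/- day 12 replicate 1, and as deposited its values of 47.3 and 12.2 CPM overlapped the WT values of 13.2 and 7.29. It was also no longer called without either WT day 12 library or either Def6-/- day 0 library, with log2 differences of 0.94 to 1.45. Among the other 9 members the log2 differences ran from -0.04 in Plod3 to 0.18 in Plod1, with intervals of -0.39 to 0.31 and -0.27 to 0.63. The Serpinh1 libraries did not overlap between genotypes either, 3070 and 3363 against 2799 and 3069, a log2 difference of 0.13 (95% interval -0.32 to 0.58), beside 16.8% of all genes not overlapping in that direction, and 0 members were lower without overlap, beside 15.9%.

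The difference between the 2 genotypes' changes was tested directly, and 0 of 10 members passed (limma, p under 0.05 unadjusted and over 1.2-fold), beside 0.696% of all genes higher and 0.421% lower. EdgeR gave 0 and DESeq2 gave 1, Loxl4. The change of Loxl4 differed 2.14-fold (95% interval on the log2 scale -0.56 to 2.76). For the other 9 members it lay between -0.02 and 0.20, with intervals that reached from -0.93 to 0.98 in Loxl3 and from -0.43 to 0.56 in Plod3. The genotype comparison at day 12 and each day comparison share libraries, and their values stand here only side by side.

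**Figure D4:**
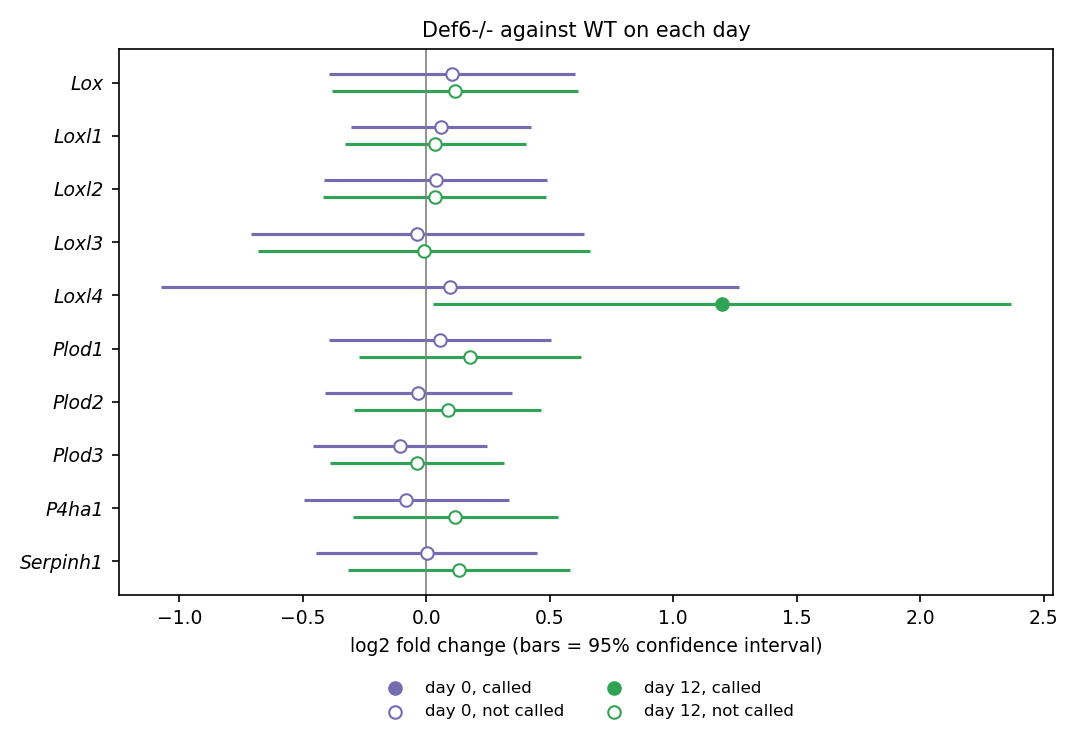
Log2 difference of Def6-/- minus WT for each member, day 0 in purple and day 12 in green, with bars for the 95% confidence interval and a filled point where the limma p was under 0.05 unadjusted with a change over 1.2-fold. Loxl4 on day 12 is the filled point (2.29-fold), and all other intervals include 0.

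Genes that act beside the members mostly rose or did not pass. Of 29 listed partners in procollagen modification, transport and processing, 27 were tested, and 10 rose and 1 fell in WT, while 10 rose and 0 fell in Def6-/- cells. Over all genes tested, 12.7% were higher and 5.63% lower in WT, and 12% and 4.79% in Def6-/- cells. The list's median log2 change was 0.63 and 0.61. Tll1, a protease of the procollagen C-proteinase family, rose by 2.82 and 2.43 on the log2 scale (SE 0.20, limma adjusted p = 5.97e-05 in WT and 0.000122 in Def6-/- cells). Adamts2, the procollagen N-proteinase, rose by 2.19 and 2.22 (SE 0.23), from 84.5 to 132 normalized CPM on day 0 to 470 to 564 on day 12. Pcolce, which enhances C-propeptide removal, rose by 1.58 and 1.67 (SE 0.17) and had 482 to 535 normalized CPM on day 0 and 1482 to 1626 on day 12. Its paralog Pcolce2 fell in WT by 1.98 on the log2 scale (SE 0.45) from 16.8 to 3.34 normalized CPM on average, and its log2 change of -1.44 in Def6-/- cells did not pass.

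Inside the endoplasmic reticulum, P3h3, of the prolyl 3-hydroxylase family, rose by 1.32 and 1.33 on the log2 scale, and Crtap, whose product is the partner of a prolyl 3-hydroxylase, by 0.96 and 0.91. The isomerase genes Fkbp9 (from 597 to 642 normalized CPM on day 0 to 1309 to 1525 on day 12) and Fkbp7 (by 1.62 and 2.06) also rose. No partner passed between genotypes on either day or in the difference of changes by limma unadjusted, edgeR or DESeq2. Without WT day 0 replicate 2 some passed in both directions on day 0 and in the difference of changes. Calls over all genes rose in that fit as well, so this is not particular to the partners. Over all alternatives the number rising was 5 to 15 in WT and 6 to 17 in Def6-/- cells, and without WT day 0 replicate 1 it was 14 and 17.

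**Figure D5:**
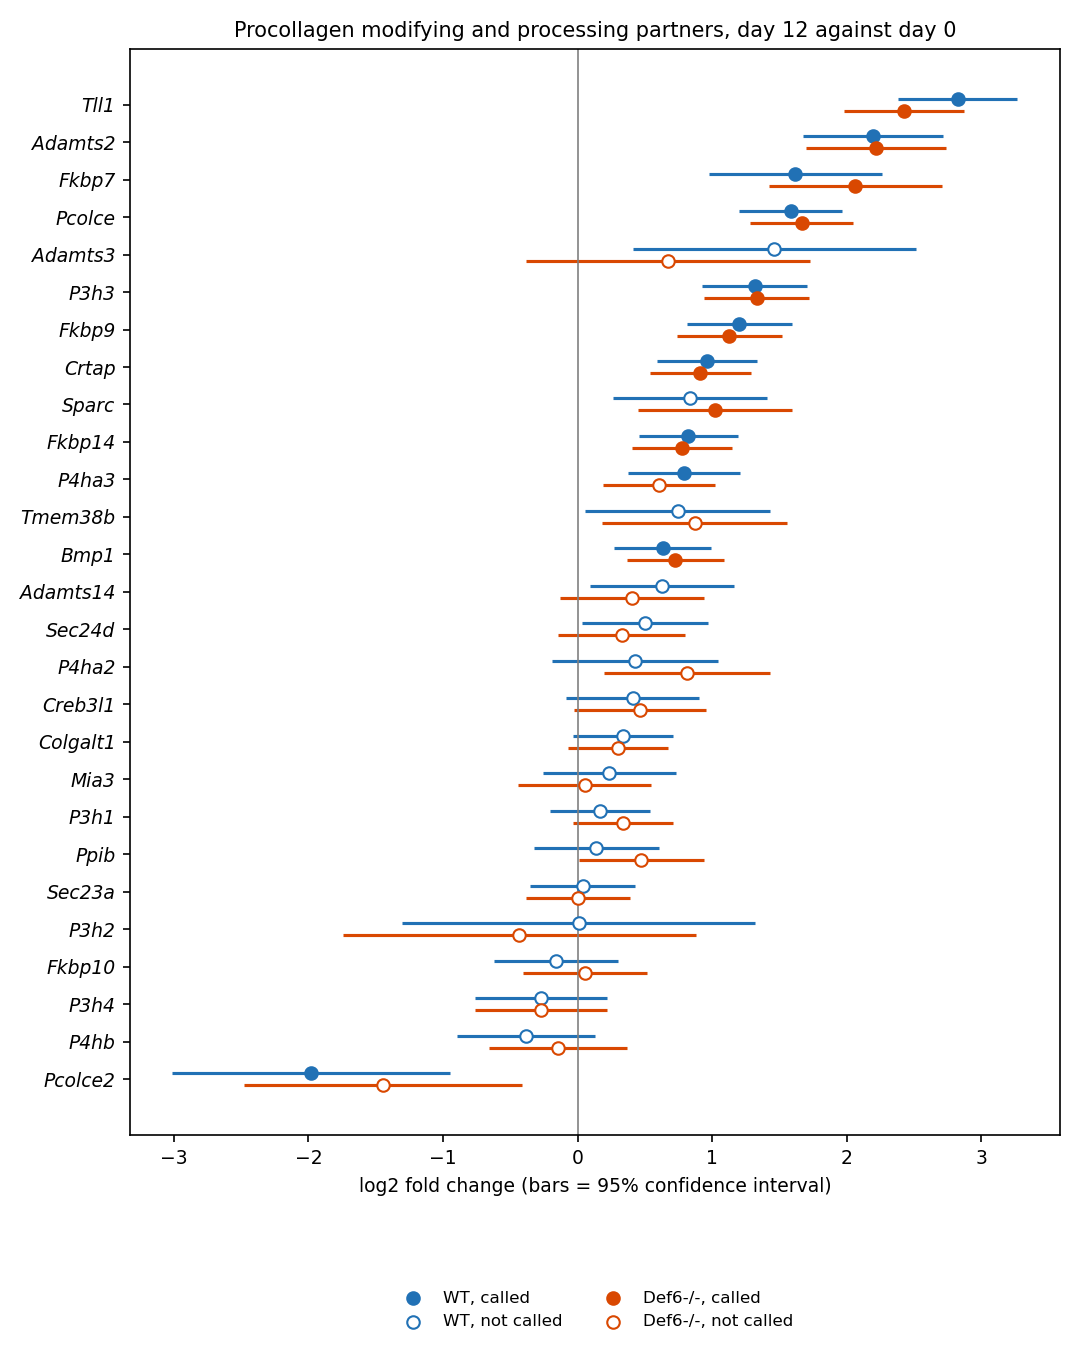
Log2 fold change of day 12 against day 0 for the 27 partner genes tested, ordered by the WT value, WT in blue and Def6-/- in orange, with bars for the 95% confidence interval and filled points where the limma adjusted p was under 0.05. Tll1 and Adamts2 have the highest values in both genotypes, over 2 on the log2 scale, and Pcolce2 ends it below -1.

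At the adjusted threshold, 5 of 12 substrate genes (fibrillar collagens and elastic fibre proteins) rose in WT, beside 12.7% of all genes tested. In Def6-/- cells 3 substrates rose, beside 12%. No substrate fell in either genotype, beside 5.63% and 4.79% of all genes. At an unadjusted p under 0.05 in limma, 0 were lower in WT and 1 in Def6-/- cells (Fbn1, fibrillin, named after its value was seen), and leaving out WT day 0 replicate 1 gave 2 lower in each genotype and 8 higher in Def6-/- cells. Over all alternatives 1 to 7 rose in WT, with 1 without either WT day 12 library, and 0 to 8 in Def6-/- cells, with 0 without Def6-/- day 12 replicate 2 and 1 without replicate 1. Col3a1 (type III collagen) rose by 1.70 and 1.42 on the log2 scale and Col1a2 (a chain of type I collagen) by 1.70 in each. Eln (elastin) rose by 1.08 and 0.79. Col5a3 and Col11a1, minor fibrillar chains, rose in WT by 1.01 and 1.30, and their log2 changes of 0.55 and 1.16 in Def6-/- cells did not pass. Eln also passed as higher in Def6-/- cells on day 0 by the unadjusted criterion, by 0.52 on the log2 scale (SE 0.22). This was 1 of 12 substrates, beside 0.988% of all genes. The count moved in both directions over the alternatives, and most without WT day 0 replicate 2. That fit leaves 1 library in the group, and calls over all genes rose in it as well.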

How the data were processed

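Poly-A+ RNA of 8 libraries was sequenced on an Illumina instrument. The authors' pipeline, HISAT2 on the mm10 build, HTSeq counting and edgeR, gave the deposited CPM, which are relative to all reads including those on no gene. The submitters' processing notes also name fastp, and versions were not given in the sources used here. No strand setting was given in the sources used here. CPM values were whole multiples of 1 read for 99.957% of 114821 values above 0 (tolerance 0.01 reads) and for every member, so reads could be recovered. CPM were rescaled to reads on genes (28.8% to 35.3% of all) with TMM factors, and log2(CPM + 1) was fitted with limma 3.58.1 (R 4.3.3) as 4 group means over 12348 genes with at least 1 CPM on average in a group. The 5 rows that name no gene, such as unaligned or ambiguous reads, made up the rest. Day comparisons were called at a Benjamini-Hochberg adjusted p under 0.05, and genotype comparisons by the study's criterion. Values not whole reads numbered 49, in 9 genes, none a member. edgeR 4.0.16 and DESeq2 1.42.0 on recovered reads were alternatives. Gene positions and exon lengths came from GENCODE for GRCm38. All members were named, partners and substrates only if called (at most 6 a direction) or direct partners of a member. P4ha2 and P4ha3 were named beside P4ha1 after their values were seen. Members and lists were chosen with earlier results of these data known. The fit was also run on counts simulated from a common mean for each gene, with changes set in WT day 12 only. That setting leaves out the outlying WT day 0 replicate 1 and any replicate structure, so it does not bear on the calls reported.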

Additional observations from a re-analysis of the deposited data

How the results depend on the processing

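With 2 libraries a group the p-values measure only the spread between these libraries. Members held 62 to 11832 reads a library. In WT cultures the 1 member called higher at day 12 became 0 with CPM as deposited, with DESeq2 and with only the libraries compared, and the 3 called lower became 1, 3 and 0. In Def6-/- cultures CPM as deposited gave 0 higher and 1 lower in place of 1 and 3. DESeq2 called 1 member higher in the difference of changes, where limma called 0. Leaving out 1 library gave 0 to 1 higher and 0 to 5 lower in WT, 0 to 1 higher and 0 to 4 lower in Def6-/- cells, 0 to 1 higher between genotypes at day 12 and 0 to 1 higher in the difference of changes, the 1 being Loxl4 without Def6-/- day 12 replicate 2. Plod1 lost its WT call without any library other than those of WT day 0. The WT calls lower were all lost without either WT day 12 library. They were fewer without either Def6-/- day 12 library and more without WT day 0 replicate 2. The WT calls lower over all genes moved in the same direction in each of these fits, so this is not particular to the members. The Def6-/- calls lower were all lost without Def6-/- day 0 replicate 1 or either Def6-/- day 12 library. They were fewer without Def6-/- day 0 replicate 2 or either WT day 12 library. Those over all genes were fewer in each of these fits too. The cause was not tested. Log2 changes moved less: over all alternatives Plod3 ranged from -0.83 to -0.72 in WT and -0.79 to -0.67 in Def6-/- cells, Plod1 from 0.66 to 0.74 and 0.61 to 1.03, Lox from -0.99 to -0.57 and -0.86 to -0.68, and Loxl2 from -0.84 to -0.67 and -0.98 to -0.48. None of the 9 called values turned sign, and 28 of 41 uncalled values did in at least 1 alternative. Alternatives for the partner and substrate counts were chosen after seeing the data. Deviations of libraries with the same replicate number correlated at 0.037 to 0.327 between the groups compared, with the highest value between genotypes on day 0. What the replicate numbers share across groups was not tested. With the replicate number as a block the member counts were 1 higher and 3 lower in each genotype by day, 1 higher at day 12 between genotypes and 0 elsewhere. Replicate 1 lay above replicate 2 in all 4 groups for 3 members (Loxl4, Plod1 and P4ha1), beside 10.5% of genes tested, and below it for 0, beside 9.51%. The summed hypoxia-inducible factor targets were higher in replicate 1 of every group too. Over all genes, CPM as deposited gave 138 higher and 53 lower between genotypes on day 0 against 122 and 162, and 119 and 51 on day 12 against 100 and 73. Those day 12 counts were 61 and 24 with DESeq2, 237 and 222 with no filter, and 293 and 261 with only the libraries compared. The day 0 counts were 35 and 177, 193 and 231, and 43 and 57. By day, only the libraries compared gave 890 higher and 203 lower in WT and 2264 and 1645 in Def6-/- cells, against 1565 and 695, and 1485 and 591.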

Other observations

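P4ha1, Plod2, Lox and Loxl2 are among the genes known to respond to hypoxia-inducible factors, and 16 other targets of these factors were read beside them. Of the 16, 6 rose and 1 fell by day 12 in WT (limma adjusted p under 0.05), beside 12.7% and 5.63% of all genes tested. In Def6-/- cells 8 rose and 0 fell, beside 12% and 4.79%. The 16 had median log2 changes of 1.04 in WT and 0.88 in Def6-/- cells. Their summed level did not separate the days, at 1437 to 2144 normalized CPM at WT day 0, 1236 to 1591 at WT day 12, 1439 to 1657 at Def6-/- day 0 and 1348 to 2034 at Def6-/- day 12. Ldha, the most abundant of the 16, weighed heavily in these sums. It averaged 1145 and 665 normalized CPM in WT on the 2 days and 923 and 679 in Def6-/- cells, and passed in neither. Ndrg1, a stress-induced gene, rose by 1.71 on the log2 scale in WT and 1.87 in Def6-/- cells, and Pdk1, which limits entry of pyruvate into mitochondria, by 1.74 and 1.67. Adm (adrenomedullin) fell in WT by 1.39 on the log2 scale and its log2 change of -0.72 in Def6-/- cells did not pass. The number that rose ran from 1 to 7 in WT and from 1 to 10 in Def6-/- cells over the alternatives, which were chosen for this list after seeing the data. It was 1 in WT without WT day 12 replicate 1 and 1 in Def6-/- cells without Def6-/- day 12 replicate 1, the library in which Car9 (83.8 against 13.2 normalized CPM) and Egln3 (62.4 against 19.2) were far above replicate 2. Between genotypes at day 12 limma and edgeR called 0 of the 16 and DESeq2 called 3 higher, and the count ran from 0 to 6 over the alternatives, with 6 without Def6-/- day 12 replicate 2. In the difference of changes it ran from 0 to 4. In the fit reported, 14 of the 16 were higher in Def6-/- cells, with a median log2 difference of 0.31 beside -0.00055 over all genes. The summed level of Def6-/- day 12 replicate 2, 1348, lay inside the WT day 12 range, and that of replicate 1, 2034, lay above it.

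The genes whose log2 levels followed P4ha1 most closely across the 8 libraries were Birc2 (Pearson r = 0.970), Egln3 (0.969), an oxygen-sensing prolyl hydroxylase, and Pctp (0.966). Lox was followed by Trim66 (0.997), Arhgef2 (0.993) and Fosl2 (0.993), Plod2 by Dnajb14 (0.958), Sh3bp5l (0.956) and C030006K11Rik (0.945), and Serpinh1 by R3hcc1 (0.930), Med20 (0.900) and Tpd52l1 (0.895). These were the highest values for each member among all genes tested, over 8 libraries that fall into 4 groups, and they are given as a description.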
